A study of Mus musculus with 2 samples.

Results

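De novo lipogenesis, the making of fatty acids from sugar carbon, was followed through 10 genes that encode its enzymes and regulators: Thrsp, Srebf1, Mlxipl, Acly, Acss2, Acaca, Acacb, Fasn, Elovl6 and Scd1. They were chosen by name, with earlier results of these data known, and 8 of the 10 were found among the 8551 genes of the deposited table. Acaca and Acacb, the genes of the acetyl-CoA carboxylases, are not analysed here. Liver mRNA was compared between wild type male mice and male db/db mice, both given as C57BL/6 background, 9 weeks of age and fed chow. The db/db mice carry a defect of the leptin receptor and become obese and diabetic. Livers were taken about 3 h after the light came on. Each group is 1 library, so no difference below has a replicate check, and each p-value compares the 2 libraries and not the conditions. The methods name 2 suppliers of mice without saying which gave which genotype, so supplier and genotype cannot be told apart. They also do not say whether RNA of several mice was pooled. Lepr, the gene of the leptin receptor, is not analysed here and could not serve to check the labels.

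In the liver, insulin and sugar drive lipogenesis after a meal. The transcription factor SREBP-1c, made from Srebf1, answers to insulin, and ChREBP, made from Mlxipl, answers to sugar metabolites. Citrate that leaves the mitochondria is split to acetyl-CoA by the product of Acly, while the product of Acss2 makes acetyl-CoA from acetate. Acetyl-CoA carboxylases turn acetyl-CoA into malonyl-CoA, and fatty acid synthase, made from Fasn, joins these units to palmitate with NADPH as the reductant. The products of Elovl6 and Scd1 lengthen palmitate and place the first double bond. Thrsp encodes Spot14, a small nuclear and cytosolic protein that thyroid hormone and carbohydrate feeding raise in liver.

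The values are what the study calls TPM, here the tags of a gene per 1000000 clean tags. A tag is the short read that starts at a cut by DpnII, an enzyme that cuts at GATC. The steps between values gave 10278531 clean tags in the normal and 13508232 in the diabetic library, of which 3809707 and 5993204 fell on listed genes. Ratios are diabetic over normal. Their 95% Clopper-Pearson intervals hold the counting error alone, and without molecular identifiers a tag is not an independent molecule. The false discovery rate (FDR) was computed by the exact binomial test, two-sided, of a gene's reads and adjusted after Benjamini and Hochberg over all 8551 genes. The median log2 ratio of all listed genes was 0.25, so a typical gene was higher in the diabetic library as deposited. Each of 4 other scalings between the libraries lowered every log2 ratio by 0.25 to 0.31, and the value under one of them, the trimmed mean of M values (TMM), is given for each gene.

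To show what was counted, the GATC site nearest the 3′ end that leaves a full tag was located in a RefSeq-matched GENCODE M21 transcript of each gene (GRCm38). The site is in capitals, followed by 16 bases. The tag length is not given in the sources used here, other sites of a transcript can also give tags, and the authors' own tags were not analysed here. The sites nearest the end were as follows.
Thrsp: GATCagtaggaagcacaggt
Srebf1: GATCagggcccattagtgag
Mlxipl: GATCcacccacccctgcctc
Acly: GATCttttttttttctatgt
Acss2: GATCctaaaaccaagggaat
Fasn: GATCtggcttgtcagtatga
Elovl6: GATCaaggtgttgcctggtg
Scd1: GATCctcagcagaggtattc

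All 8 sites lay in the last exon, within the 3′ UTR, and 0 other genes had any of these 20 bases in an annotated transcript. Of the gene's own annotated coding transcripts, the tag was in 1 of 1 for Thrsp, 2 of 3 for Srebf1 and 3 of 4 for Acly. It was in 1 of 4 each for Mlxipl and Acss2, 1 of 3 for Fasn, 1 of 5 for Elovl6 and 1 of 2 for Scd1. On the plus strand were the sites of Mlxipl (chr5:135138147-135138166), Acss2 (chr2:155562592-155562611) and Elovl6 (chr3:129638209-129638228). On the minus strand were those of Thrsp (chr7:97413284-97413303), Srebf1 (chr11:60199287-60199306), Acly (chr11:100476727-100476746), Fasn (chr11:120805894-120805913) and Scd1 (chr19:44394757-44394776). Scd1 has a still later site 17 bases from its transcript end, too near for a full tag. The tag of Acly holds a long run of T, and the site of Fasn lies 68 bases from the end of a 10050-base transcript, the longest of the 8.

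The 8 lipogenic genes did not move as a block. Thrsp, Elovl6 and Scd1 were at least 1.5-fold higher in the diabetic library, Acss2 was at least 1.5-fold lower, and Srebf1, Mlxipl, Acly and Fasn differed by less than 1.5-fold. Of all listed genes, 34.4% were at least 1.5-fold higher and 15.3% at least 1.5-fold lower. With the FDR limit of 0.001 added, the members counted 3 higher and 1 lower, against 22.9% and 8.19% of listed genes. All 8 had a mean of at least 10 TPM, and among the 3673 such genes 35.0% were higher and 11.6% lower by fold, and 34.6% and 11.4% by both criteria. As deposited, the share of members that were higher, 3 of 8, is thus near the background. Under each of the 4 scalings the same 3 members passed both criteria as higher, beside 13.3% to 14.9% of all listed genes and 20.6% to 23.1% of those with a mean of at least 10 TPM. Their median log2 ratio was 0.42, and 0.29 without Thrsp, beside 0.25 for all listed genes. Fewer cells of a type and less RNA per cell cannot be told apart in these bulk samples.

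**Figure D1:**
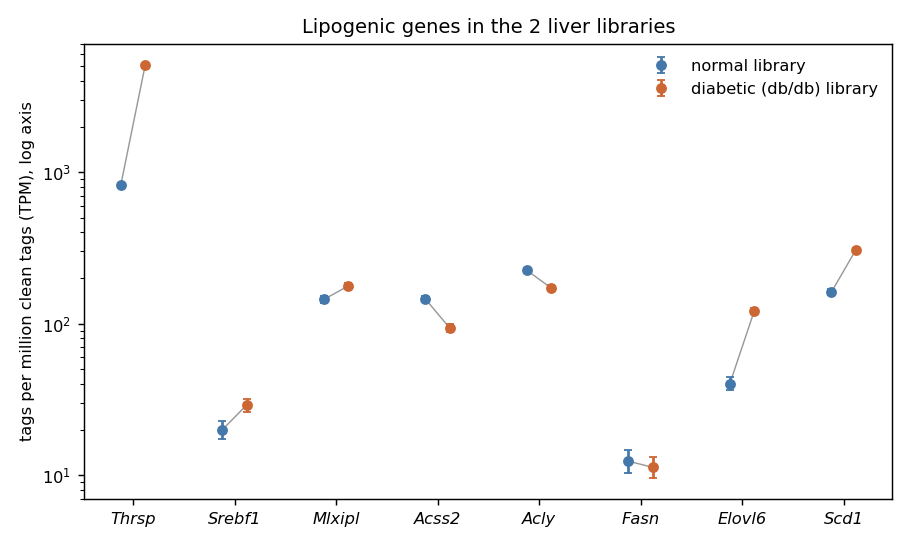
Level of each lipogenic gene in the normal (blue) and the diabetic (orange) library, in TPM on a log axis, with exact 95% Poisson intervals of the reads where these exceed the point. Thrsp went from 825 to 5089 TPM, while Fasn stood at 12.4 and 11.3 TPM.

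Thrsp held most of what the set gained. In the normal library the 8 genes together took 0.157% of all clean tags (95% Wilson interval 0.155% to 0.160%), and in the diabetic library 0.600% (0.596% to 0.604%), a 3.81-fold difference. Thrsp alone went from 0.0825% to 0.509%. The other 7 genes together went from 0.0749% (0.0733% to 0.0766%) to 0.0909% (0.0893% to 0.0925%), a 1.21-fold difference. As a share of the tags on listed genes, the other 7 held 0.202% and 0.205%, a 1.01-fold difference, so that the gain of the set without Thrsp depended on the denominator.

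Thrsp (Entrez 21835) had 8481 reads or 825 TPM in the normal library and 68737 reads or 5089 TPM in the diabetic library. It was 6.17-fold higher (95% interval 6.03 to 6.31), with a log2 ratio of 2.62 as deposited and 2.37 under TMM scaling. Only 1.92% of the listed genes had a higher log2 ratio. Mid1ip1, which encodes the Spot14-related protein that binds acetyl-CoA carboxylase, was at 30.3 and 76.4 TPM, a log2 ratio of 1.34 (1.15 to 1.52). The ratio of Thrsp exceeded that of Mid1ip1 by 2.44-fold (95% interval 2.14 to 2.78), a contrast that no scaling between the libraries alters. The 3 listed genes nearest to Thrsp by the distance of log2 TPM over the 2 libraries were Fbp1, a gluconeogenic phosphatase (900 and 2782 TPM, distance 0.88), Gpx1, a glutathione peroxidase (1065 and 2605 TPM, 1.03), and Cyp3a11, a drug-metabolising cytochrome P450 (937 and 2377 TPM, 1.11). All 3 had lower ratios than Thrsp, the highest being 3.09-fold for Fbp1.

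**Figure D2:**
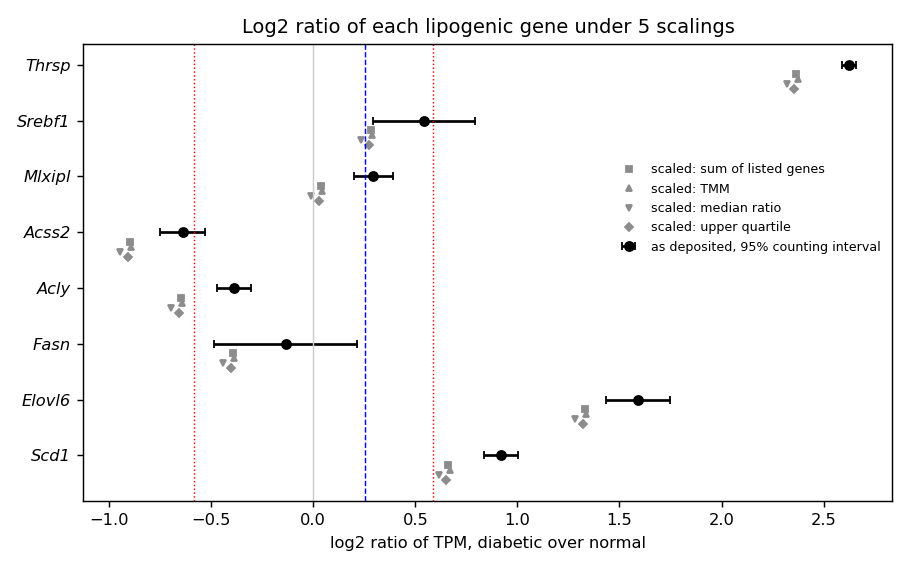
Log2 ratio of TPM, diabetic over normal, for each lipogenic gene (black, with the 95% counting interval) and under 4 other scalings (grey symbols below it), with the 1.5-fold limits as red dotted lines and the median of all listed genes, 0.25, as a blue dashed line. Thrsp and Elovl6 lie far to the right, Acss2 lies left of the lower limit, and Acly crosses that limit only under the other scalings.

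As deposited, the mRNAs of both lipogenic transcription factors were higher, by less than 1.5-fold. Srebf1 (Entrez 20787) had 205 reads or 19.9 TPM in the normal library and 392 reads or 29.0 TPM in the diabetic library. Its ratio of 1.46 (95% interval 1.23 to 1.73) lay just under the 1.5-fold limit, with an exact test FDR of 3.73e-05 and a log2 ratio of 0.54 as deposited and 0.29 under TMM scaling. Mlxipl (Entrez 58805) had 1485 reads or 144 TPM and 2394 reads or 177 TPM, a ratio of 1.23 (1.15 to 1.31). Its log2 ratio of 0.29 was close to the median of all genes, was 0.042 under TMM scaling and changed sign to -0.011 under median-ratio scaling. Between the 2 factors the ratio of Mlxipl was 0.843 times that of Srebf1 (95% interval 0.700 to 1.01), an interval that includes 1. A tag count cannot separate the Srebf1 isoforms that share a 3′ end, nor does it show how much SREBP-1 is cleaved to its active form.

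Of 25 genes for the processing of SREBP and for partner factors, 22 were listed. Of these, 3 were at least 1.5-fold higher and 4 lower, each past the FDR limit too, and the median log2 ratio was 0.00037 as deposited and -0.25 under TMM scaling. For this and each list below, the shares of all listed genes were 34.4% higher and 15.3% lower by fold as deposited. With the FDR limit they were 22.9% and 8.19%. Higher were Pparg, the nuclear receptor of fat storage (7.59 and 51.8 TPM, log2 ratio 2.77), Mid1ip1, and Nr1h2, which encodes LXR-beta (14.5 and 24.9 TPM, 0.78). Lower were Hnf4a, a hepatocyte transcription factor (96.8 and 46.2 TPM, -1.07), Nfyb, a subunit of the CCAAT-binding factor NF-Y (19.8 and 10.4 TPM, -0.93), Usf2, an E-box factor (66.0 and 38.4 TPM, -0.78), and Scap, the escort of SREBP to the Golgi (57.7 and 37.8 TPM, -0.61).

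Both genes that make cytosolic acetyl-CoA were lower in the diabetic library. Acss2 (Entrez 60525) had 1498 reads or 146 TPM in the normal library and 1263 reads or 93.5 TPM in the diabetic library. It was 1.56-fold lower, with a log2 ratio of -0.64 (95% interval -0.75 to -0.53) as deposited and -0.89 under TMM scaling, and 13.8% of the listed genes had a lower log2 ratio. Acly (Entrez 104112) had nearly equal reads, 2313 and 2319, which at the different depths were 225 and 172 TPM. It was 1.31-fold lower, with a log2 ratio of -0.39 (-0.47 to -0.31), and passed the 1.5-fold limit under each of the 4 scalings (-0.64 under TMM). The diabetic over normal ratio of Acss2 was 0.841 times that of Acly (95% interval 0.764 to 0.925).

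Of 11 genes of mitochondrial citrate and pyruvate supply 9 were listed, with 5 at least 1.5-fold higher and 1 lower as deposited, and 3 or 4 higher under the 4 scalings. The median log2 ratio was 0.70 as deposited and 0.40 to 0.45 under the scalings. The lower one was Slc25a1, the carrier that exports the citrate used by Acly (172 and 96.2 TPM, log2 ratio -0.84, 95% interval -0.94 to -0.73), while Mdh2 of the citric acid cycle was higher (74.7 and 195 TPM, 1.39). Of 14 genes that control acetyl-CoA carboxylase or citrate lyase 10 were listed, and only Ppm1k, a phosphatase that acts on citrate lyase, passed both criteria (15.2 and 27.3 TPM, 0.85). None of these 10 was lower by both criteria as deposited.

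Fasn (Entrez 14104) had 127 reads or 12.4 TPM in the normal library and 152 reads or 11.3 TPM in the diabetic library. As deposited, its ratio of 0.910 had a 95% interval of 0.715 to 1.16, so a difference was not detectable at this depth. The exact test gave an FDR of 0.558 as deposited, and of 0.0233 (median-ratio) to 0.05 (TMM) under the 4 other scalings. Fasn passed neither the fold limit nor the FDR limit under any of them, but whether a difference was detectable depended on the scaling. The log2 ratio was -0.14 as deposited and -0.39 under TMM scaling, and 68.3% of the listed genes had a higher one. Set against the ratio of Fasn, which shifts with the same scaling, the ratio of Thrsp was 6.77-fold higher (95% interval 5.30 to 8.64), that of Elovl6 3.30-fold (2.53 to 4.32) and that of Scd1 2.08-fold (1.62 to 2.67). For Acly against Fasn the factor was 0.838 (0.652 to 1.08), an interval that includes 1.

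Of 11 genes of NADPH supply 9 were listed, with 5 at least 1.5-fold higher and 2 lower, each past the FDR limit too, and a median log2 ratio of 1.08. Idh1, the cytosolic isocitrate dehydrogenase (135 and 467 TPM, log2 ratio 1.80), and Pgd of the pentose phosphate pathway (14.3 and 43.1 TPM, 1.59) were among the higher ones. G6pdx, which encodes the first enzyme of that pathway, was lower (8.46 and 2.52 TPM, -1.75), as was H6pd, its counterpart in the endoplasmic reticulum (108 and 58.6 TPM, -0.88).

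Both genes that finish the fatty acid were higher in the diabetic library. Elovl6 (Entrez 170439), which encodes the elongase of palmitate, had 413 reads or 40.2 TPM in the normal library and 1634 reads or 121 TPM in the diabetic library. It was 3.01-fold higher (95% interval 2.70 to 3.36), with a log2 ratio of 1.59 as deposited and 1.34 under TMM scaling, and 6.99% of the listed genes had a higher one. Scd1 (Entrez 20249), which encodes the main stearoyl-CoA desaturase of liver, had 1659 reads or 161 TPM and 4127 reads or 306 TPM. It was 1.89-fold higher (1.79 to 2.01), with a log2 ratio of 0.92 as deposited and 0.67 under TMM scaling, and 21.0% of the listed genes had a higher one. Of 17 other desaturases, elongases and genes of the elongation cycle 11 were listed, with 1 at least 1.5-fold higher and 3 lower and a median log2 ratio of 0.070 as deposited and -0.18 under TMM scaling. The higher one was Ptplad1. Elovl3, an elongase of very long chains, was 13.8-fold lower (26.5 and 1.92 TPM), Elovl2, an elongase of polyunsaturated fatty acids, was at 230 and 80.7 TPM (log2 ratio -1.51), and the desaturase gene Fads1 was at 85.5 and 46.6 TPM (-0.87).

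**Figure D3:**
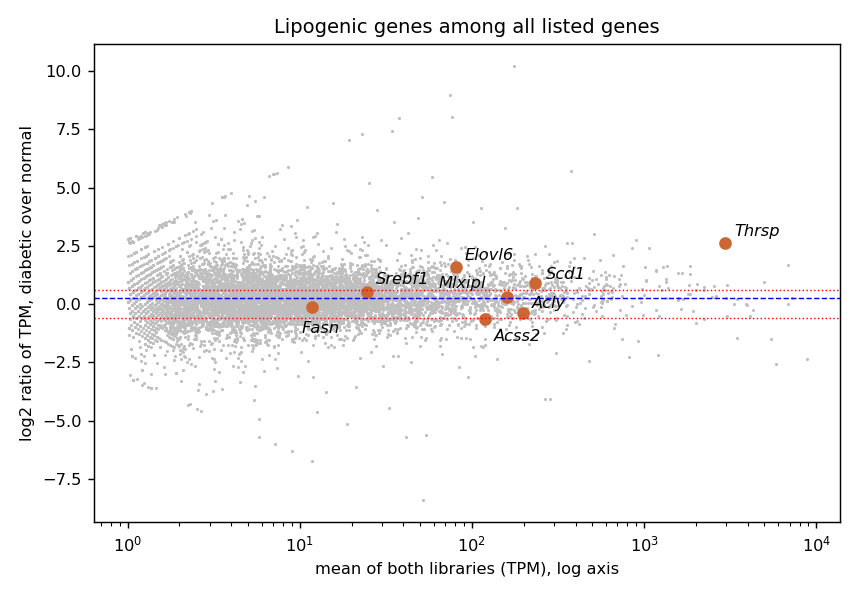
Log2 ratio of TPM against the mean TPM of both libraries (log axis) for all 8551 listed genes (grey) and the 8 lipogenic genes (orange), with the 1.5-fold limits (red dotted) and the median of 0.25 (blue dashed). Thrsp stands apart at a mean of 2957 TPM and a log2 ratio of 2.62, Elovl6 and Scd1 lie above the upper limit, and the other 5 lie in or just below the bulk of genes of like abundance.

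Sugar supplies the carbon for these enzymes and the signal for ChREBP. All 8 genes chosen for sugar input were listed, with 6 at least 1.5-fold higher, 0 lower and a median log2 ratio of 0.96 as deposited, and with 4 higher and 0 lower under each of the 4 scalings. The glucose carrier gene Slc2a2 was at 77.6 and 242 TPM (log2 ratio 1.64), and the pyruvate kinase gene Pklr, a classical ChREBP target, was at 197 and 526 TPM (1.41). Of 10 genes of mitochondrial fatty acid synthesis and of other acetyl-CoA synthetases 6 were listed, with 3 higher and 1 lower at 1.5-fold and a median of 0.70 as deposited. Under the scalings 2 or 3 of these were higher, 2 were lower and the median was 0.39 to 0.44. Of 19 other target genes of lipogenic factors or genes of fat storage 15 were listed, with 11 higher and 0 lower at 1.5-fold and a median of 1.56. Under each of the scalings 10 were higher and 0 lower, and the median was 1.25 to 1.31. Over all 115 such pathway genes 90 were listed, 37 were at least 1.5-fold higher and 12 lower, and the median was 0.43, next to the 0.42 of the lipogenic genes. Of all listed genes, 34.4% were higher and 15.3% lower at 1.5-fold as deposited.

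**Figure D4:**
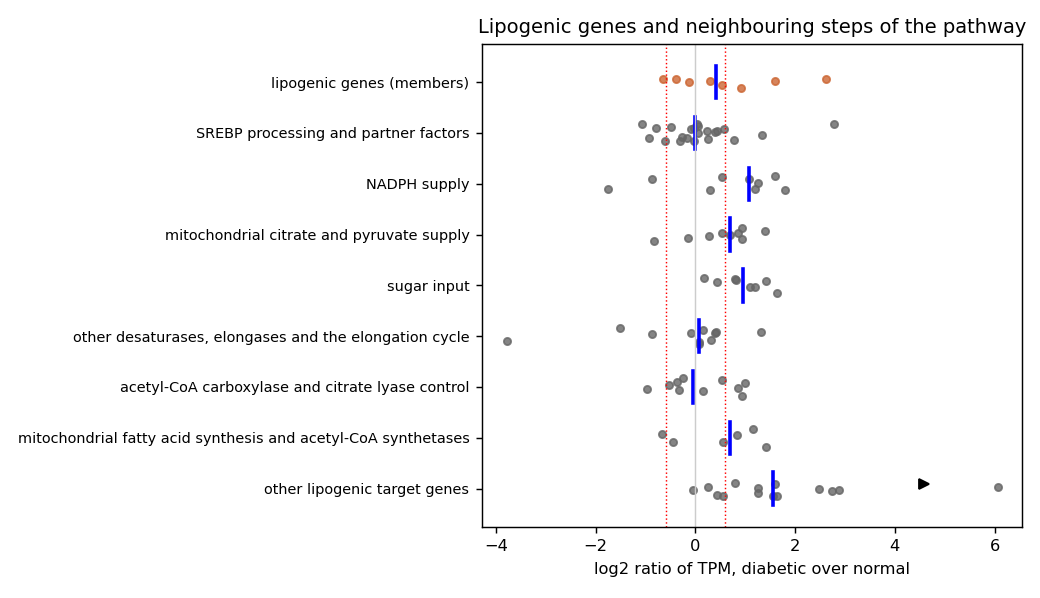
Log2 ratio of TPM, diabetic over normal, of the 8 lipogenic genes (orange) and of each list of pathway genes (grey), with each list's median as a blue bar, no difference as a grey line and the 1.5-fold limits as red dotted lines. The triangle is Cidea, at 0 reads in the normal library and drawn at its lower bound, and the rightmost point is Cidec, drawn at the ratio of its 2 and 176 reads (log2 6.07, 95% interval 4.19 to 9.12). The medians run from -0.056 for the control of acetyl-CoA carboxylase and citrate lyase to 1.56 for other lipogenic target genes.

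The promoters of the 2 members with the highest ratios and of the member with the lowest are shown to set their sequences beside these ratios. RefSeq promoters (GRCm38.p6, 250 bases before to 50 after a start site) were held for 7 of the 8 members, 10 promoters in all. Letters were searched on both strands: CCAAT (the NF-Y box), GGGCGG (the GC box of Sp1), CACGTG (an E-box), TCACNCCAC (a form of the sterol regulatory element), TATAAA, and AGGTCA repeated after 4 bases (the DR4 repeat that LXR reads). The 250 bases before each start site are printed 5′ to 3′ along the gene, with matches in capitals on whichever strand they lie.
Thrsp, minus strand, chr7:97417551-97417800: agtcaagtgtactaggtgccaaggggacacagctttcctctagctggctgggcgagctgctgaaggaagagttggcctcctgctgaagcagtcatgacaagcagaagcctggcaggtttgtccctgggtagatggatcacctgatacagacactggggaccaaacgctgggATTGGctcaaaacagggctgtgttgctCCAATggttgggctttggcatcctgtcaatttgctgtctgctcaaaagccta
Elovl6, plus strand, chr3:129532136-129532385: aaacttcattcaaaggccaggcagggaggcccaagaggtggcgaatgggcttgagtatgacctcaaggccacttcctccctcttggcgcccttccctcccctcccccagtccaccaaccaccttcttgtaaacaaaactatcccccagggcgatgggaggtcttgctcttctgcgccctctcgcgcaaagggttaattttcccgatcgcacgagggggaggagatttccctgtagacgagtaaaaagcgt
Acss2, plus strand, chr2:155517793-155518042: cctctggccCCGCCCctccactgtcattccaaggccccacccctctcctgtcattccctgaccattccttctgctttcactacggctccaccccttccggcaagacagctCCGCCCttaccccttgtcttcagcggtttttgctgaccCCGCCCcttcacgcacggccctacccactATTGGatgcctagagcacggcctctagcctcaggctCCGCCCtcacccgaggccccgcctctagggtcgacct

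Thrsp has CCAAT letters starting 79 and 52 bases before its start site, Elovl6 has none of the 6 motifs, and Acss2 has 1 CCAAT match 73 bases before the start and 5 GC boxes, the last of them just after it. CCAAT letters were in at least 1 promoter of 6 of the 7 members, beside 37.4% of all 32851 promoters in the table, and GC boxes in 4 of 7, beside 35.7%. Mlxipl has 2 promoters and Srebf1 has 3, and the overlapping CCAATTGG of Fasn counts as 2 matches. The member counts are per gene, so that a gene with several promoters had more chances of a match. The shares of all promoters are per promoter, so the 2 are not like measures. The E-box was found in Mlxipl only (98 bases before its first listed start), beside 7.15% of all promoters, and the sterol element also in Mlxipl only (136 bases before the other start), beside 1.24%. TATAAA and the LXR repeat were in 0 of the 7, beside 13.6% and 0.0152%. These are matches of letters in short windows, not measured binding. The 3 printed promoters had 54.3%, 55.7% and 65.0% G and C over their 300 bases, in the order shown.

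The tissue label was checked on cell markers. Of 8 hepatocyte markers 6 were listed, and they summed to 12034 TPM in the normal and 12091 TPM in the diabetic library, with Alb at 6801 and 6912 TPM. Tat, Hpx and Ttr differed by less than 1.5-fold, Cps1 was higher (130 and 317 TPM) and Apob was lower (804 and 147 TPM). Adipocytes also make fatty acids and express several of the lipogenic genes. Of 10 adipocyte markers 5 were listed, none at 0 reads, and they summed to 41.7 TPM in the normal and 70.8 TPM in the diabetic library. Cfd went from 0.490 to 11.8 TPM and Fabp4 from 8.56 to 26.6 TPM, Lipe and Pde3b differed by less than 1.5-fold, and Adrb3 was at 3.41 and 1.55 TPM. The defining markers Adipoq, Lep and Plin1, with Retn and Slc2a4, are not analysed here. The higher Thrsp, Elovl6 and Scd1 thus stood beside higher Cfd and Fabp4, whose part in the result was not tested. Kupffer cell and macrophage markers (8 of 10 listed) summed to 327 and 194 TPM, sinusoidal endothelial markers (8 of 8) to 116 and 104, stellate cell markers (7 of 8) to 117 and 159, and cholangiocyte markers (3 of 6) to 61.5 and 107. Single markers weighed on these sums. Of the Kupffer cell markers 4 were at least 1.5-fold lower and 1 higher, with C1qa alone at 176 and 50.7 TPM. Of the cholangiocyte markers Spp1 was at 57.2 and 103 TPM, and the other 2 differed by less than 1.5-fold. Of 8 blood cell markers 1 was listed, Alas2, at 51.9 and 44.2 TPM.

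Variation between mice is not in the intervals above. With an assumed variation of 20% per library, in a calculation added after the values were seen, the 95% interval of the log2 ratio was 1.82 to 3.43 for Thrsp, 0.78 to 2.40 for Elovl6, 0.12 to 1.72 for Scd1 and -1.45 to 0.17 for Acss2, and only Thrsp kept both criteria. With 40%, the interval of Thrsp was 1.02 to 4.22 and that of Elovl6 was -0.017 to 3.20, and none of the 8 kept both criteria.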

How the data were processed

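Liver poly(A) RNA of 1 normal and 1 diabetic (db/db) library was profiled by DpnII digital gene expression tags on an Illumina 1G sequencer. Groups were taken from the sample labels. The authors removed adaptors, kept high quality tags, matched them to RefSeq and deposited RPM values per gene, that is reads per 1000000 clean tags, which they call TPM (genome build mm9 in the submitters' processing notes). The aligner and the treatment of tags shared by several genes are not given in the sources used here. The deposited table starts at a mean of 1 TPM (lowest 1.005) and 0.01 for no tag.

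Whole reads were computed from the value steps, 0.0973 and 0.0740 TPM for 1 read (8513 of 8513 and 8536 of 8537 values above the placeholder lay within 0.006 TPM of a whole number). A gene at 3 reads or fewer (0.292 and 0.222 TPM) was set to 3 reads in medians. Its printed ratio is that against 3 reads where it had 0 reads, and otherwise that of the reads with its interval. Genes at least 1.5-fold different with an FDR under 0.001 passed, as in the study. Ratios of ratios carry conditional exact intervals. Other scalings were the sum of listed genes, TMM (30% and 5% trims), median ratio and upper quartile (75th percentile). Pseudocounts of 0.1 and 1 TPM, minimum means of 5 and 10 TPM, a fold limit of 2, the Audic-Claverie test and assumed variation were also tried.

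The members, gene lists and tests were chosen with earlier results of these data known, and the motifs after the values were seen. The naming rule took all members, hepatocyte and adipocyte markers, and the 3 genes nearest to Thrsp. For each list it took up to 3 genes with the highest and 3 with the lowest ratio. These had at least 30 reads in all and were at least 1.5-fold different. It also took genes at 3 reads or fewer in 1 library and at least 30 in the other. Not every gene that the rule took from the lists is named in the text. Scap, Taldo1, Fitm1, Dgat1 and other genes outside this rule were named after their values were seen. Single values of 1 listed gene are not reported here. Of the Entrez identifiers, 8317 matched a RefSeq gene table. The computation was tested on simulated reads. The table held 0 further columns of sample values. Scripts ran in Python 3.11.15 with scipy 1.17.1 and numpy 2.4.6, tables were handled with pandas 2.3.3, and figures were drawn with matplotlib 3.10.9.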

Additional observations from a re-analysis of the deposited data

How the results depend on the processing

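The median log2 ratio of the lipogenic genes, 0.42 as deposited, was 0.16 when the listed genes were scaled to equal sums, 0.17 under TMM, 0.11 under median-ratio and 0.15 under upper-quartile scaling, 0.42 and 0.41 with pseudocounts of 0.1 and 1 TPM, and 0.29 without Thrsp. The log2 ratio of Acly was -0.65, -0.64, -0.70 and -0.66 under the 4 scalings in the same order, and Acly then passed both criteria. Thus 2 members in place of 1 were lower, by fold alone and with the FDR. Under these scalings 13.4% to 14.7% of all listed genes were lower by both criteria. Among genes averaging 10 TPM or more, 18.6% to 20.1% were. The log2 ratio of Mlxipl turned to -0.011 under median-ratio scaling (exact test FDR 0.882). With a fold limit of 2, 0 members were lower. The 3.81-fold share of tags on the members was 1.21-fold without Thrsp and 3.18-fold among listed tags.

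With an assumed variation of 20% per library, a normal interval on the log scale gave an FDR of 0.319 for Acss2 (log2 ratio -0.64), 0.122 for Scd1 (0.92) and 0.00316 for Elovl6 (1.59), and 1 member passed as higher and 0 as lower. With 40%, the FDR was 0.11 for Thrsp (2.62), 0.991 for Acss2, 0.986 for Scd1 and 0.728 for Elovl6, and 0 members passed in either direction. This setting was added after the values were seen. The planned test with a set dispersion was not run on the recovered reads.

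Of all listed genes, 1955 were called higher and 700 lower as deposited. These numbers were 1249 and 1165 when scaled to the listed sum, 1272 and 1147 under TMM, 1136 and 1260 under median-ratio and 1220 and 1183 under upper-quartile scaling, 1278 and 421 with a minimum mean of 10 TPM, 1236 and 387 with a fold limit of 2, and, with 20% or 40% variation assumed, 173 and 64 or 15 and 10. Of the genes that control acetyl-CoA carboxylase and citrate lyase, 3 or 4 in place of 1 were at least 1.5-fold lower under the 4 scalings. The Audic-Claverie test and a minimum mean of 5 TPM changed none of the calls of the members. No paired analysis was possible because each group is 1 library. Depth limits Fasn most, with 127 and 152 reads.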

Other observations

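Several genes of fat storage and lipid droplets were higher in the diabetic library by larger factors than most of the lipogenic genes. Cidec, a droplet-fusing protein gene, counted 2 normal and 176 diabetic reads, a 67.0-fold ratio with a 95% counting interval of 18.3 to 557. Cidea, of the same family, had 0 and 95 reads. Its ratio was 24.1-fold with the 0 set to a floor of 3 reads, and its 95% counting interval started at 19.2-fold and had no upper end. Plin4, a droplet coat gene, was at 0.780 and 5.70 TPM (log2 ratio 2.87, 95% interval 1.82 to 4.13). Outside the naming rule and named after their values were seen, Dgat1, which encodes a triglyceride-forming acyltransferase, was at 2.72 and 18.1 TPM (2.74), Fitm1, a droplet-forming protein gene, at 27.7 and 154 TPM (2.47), and Pnpla3, a target of both lipogenic factors, at 4.77 and 14.4 TPM (1.59).

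Within the sugar and NADPH lists, the fructokinase gene Khk was at 211 and 481 TPM (1.19), Pgls at 15.6 and 37.2 TPM (1.26) and, named after its value was seen, Taldo1 at 143 and 330 TPM (1.20).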
